A study of Mus musculus with 24 samples.

Results

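RNA levels in NIH3T3 cells, an immortalised line of mouse embryo fibroblasts, were compared between 480 min after spermidine addition and the unstimulated state at 0 min. The 3 arrays labelled 480 min were set against the 3 labelled 0 min, 6 of the 24 arrays in the series. Every culture had first been held for 96 h in 1 mM difluoromethylornithine (DFMO), which inactivates ornithine decarboxylase irreversibly, and the submitters describe the cells at that point as growth arrested. The 480 min cultures then received 10 µM spermidine together with 1 mM aminoguanidine, an inhibitor of the serum amine oxidases that would otherwise break the polyamine down. The labels do not state whether the 0 min cultures were given aminoguanidine. The cells grew in DMEM with fetal calf serum, 1 line was used, and each time had 3 biological replicates on Affymetrix MoGene 1.0 ST arrays labelled from 200 ng of total RNA. No culture that stayed in DFMO without spermidine for a further 480 min is among the 24 arrays. Spermidine, aminoguanidine, handling and 480 min more in culture therefore cannot be told apart in this comparison. The comparison answers which RNAs differed in depleted, arrested cells late after the polyamine was returned. The neighbouring times of 360 and 600 min, also with 3 arrays each, place the 480 min state on the time course.

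Putrescine, spermidine and spermine are small cations that bind RNA, DNA and ribosomes, and mammalian cells need them to proliferate. Ornithine decarboxylase makes putrescine, spermidine synthase adds an aminopropyl group to it, and acetylation by spermidine/spermine acetyltransferase marks polyamines for oxidation or export. Spermidine also supplies the butylamine part of hypusine, a modified lysine found in the translation factor eIF5A. Antizymes bind ornithine decarboxylase and send it to the proteasome, their own translation requires a polyamine-driven frameshift, and antizyme inhibitors release the enzyme again.

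Values are the deposited intensities, read here as log2 from their range, 1 probe set per gene, and a change is a difference of log2 group means, so that 1 unit is a doubling in linear terms. Errors on changes are standard errors (SE) of a linear model over all 24 arrays fitted with limma, and a gene was called at a Benjamini-Hochberg adjusted p under 0.05 over 19938 genes. Adjusted p-values below are from that limma fit. The gene lists below were chosen with earlier results of these data known. The share of a list that was called therefore describes that list and is no independent test. The median SE was 0.0567 and the median 95% half-width of a change was 0.118. The 3 arrays within each of the groups at 0 and 480 min correlated at 0.998 to 0.999 over genes, and arrays of opposite groups at 0.990 to 0.991. On the first principal component of the 24 arrays (63.1% of the variance) the 0 min arrays lay at -16.3, -16.2 and -14.4 and the 480 min arrays at 22.1, 22.8 and 20.6. The array labelled replicate 3 of 120 min lay at 2.61, beside replicates 1 and 2 of 240 min (2.07 and 1.49), and the array labelled replicate 3 of 240 min lay at -13.2, beside replicates 1 and 2 of 120 min (-12.2 and -12.2). Each thus stood with the arrays of the other's label, and whether the labels were exchanged was not tested. Both arrays entered this comparison only through the estimate of spread, and without them 2073 genes rose and 3042 fell. An effect of the replicate number had been removed from the deposited values, and the model does not count it: a fit with the replicate number as a block, with 14 in place of 16 residual degrees of freedom, called 1691 genes higher and 2653 lower.

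At 480 min, 1940 genes were higher and 2894 were lower than at 0 min, which is 9.73% and 14.5% of all genes and 24.2% together. The changes were mostly small: the median size of a called change was 0.37 and the median over all genes was 0.002. Among called genes that changed by 1 unit or more the balance turned, with 140 genes higher (0.702%) and 79 lower (0.396%). The values of all 3 arrays at 480 min lay above those at 0 min for 3322 genes (16.7%) and below them for 3928 (19.7%), while 111 called genes had overlapping arrays. The widest rise was that of the isoprenoid gene Idi1 (2.79) and the widest fall that of the linker histone gene H1f2 (-2.51). Of the 15 genes with the largest rises, 6 encode enzymes of the mevalonate and cholesterol pathway and Insig1 and Stard4 belong to its control and transport. The 15 largest falls were spread over more functions and included Atf4, Trib3, Ccn2 and the clock gene Nr1d1. None of these 30 genes lost its call under any of the 15 other settings tried.

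**Figure D1:**
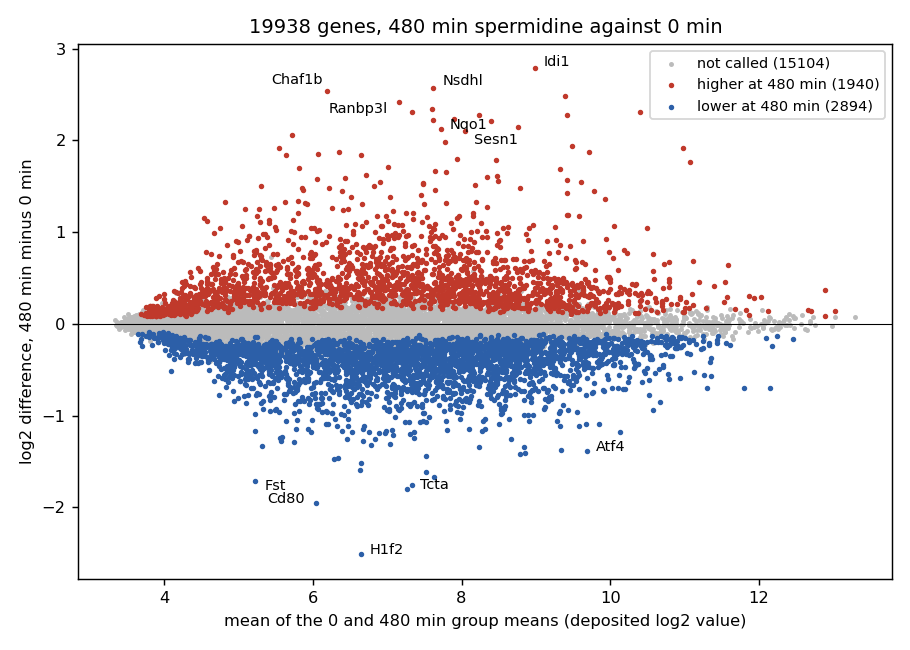
Each point is 1 of 19938 genes, with the mean of the 0 and 480 min log2 values on the horizontal axis and the log2 difference (480 min minus 0 min) on the vertical axis. Red points are the 1940 genes called higher, blue points the 2894 called lower and grey points the rest, and the labelled genes are among the largest changes, from Idi1 at 2.79 to H1f2 at -2.51.

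Polyamine genes moved both ways. Of 34 genes listed for polyamine metabolism, transport, hypusine and methionine salvage 27 were measured. The other 7 (Amd1, Amd2, Sms, Paox, Oaz1, Mat2a and Ahcy) were not analysed here. Of the 27, 6 rose (22.2%) and 8 fell (29.6%), against 9.73% and 14.5% of all genes, with a median of -0.01. The 3 largest rises were those of an antizyme gene and of genes of polyamine breakdown. Oaz2 read 5.42, 5.23 and 5.09 on the 0 min arrays and 6.13, 6.22 and 6.40 on the 480 min arrays. Every 480 min value of this gene, which encodes an antizyme, was above every 0 min value, a change of 1.00 ± 0.16 or 2-fold (adjusted p = 8.18e-05). Sat1 encodes spermidine/spermine acetyltransferase, the first step of polyamine catabolism. Sat1 read 9.22, 9.30 and 9.22 on the 0 min arrays and 9.95, 9.77 and 9.83 on the 480 min arrays. The groups were apart, and the rise was 0.61 ± 0.0738 (adjusted p = 4.31e-06). Smox, the gene of spermine oxidase, gave 4.71, 4.84 and 4.85 at 0 min and 5.72, 5.30 and 5.32 at 480 min. That was a rise of 0.65 ± 0.105 (adjusted p = 9.16e-05), with 1 array at 480 min higher than its 2 companions.

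The synthesis genes Odc1 and Srm and the genes of antizyme inhibition were lower, while Amd1, Amd2 and Sms of synthesis were not analysed. Odc1, which encodes the enzyme that DFMO blocks, read 9.78, 9.86 and 9.83 at 0 min and 9.49, 9.62 and 9.63 at 480 min. The groups did not overlap, but the fall of 0.24 ± 0.0678 (adjusted p = 0.0107) was not called when replicate 1 of 480 min was left out (adjusted p = 0.0646). Srm, the spermidine synthase gene, fell by 0.30 ± 0.0698 (adjusted p = 0.00274). Azin1 and Azin2 encode the antizyme inhibitors. Azin1 read 10.80, 10.93 and 10.88 at 0 min against 10.25, 10.30 and 10.46 at 480 min, a fall of 0.53 ± 0.0839 (adjusted p = 6.77e-05). Azin2 read 5.33, 5.43 and 5.22 against 4.53, 4.78 and 4.81, a fall of 0.62 ± 0.094 (adjusted p = 4.59e-05). In both the highest 480 min array lay below the lowest 0 min array.

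Among transport genes, Atp13a3, a P5B-type ATPase of polyamine uptake, gave 9.79, 9.84 and 9.84 at 0 min and 9.14, 9.10 and 9.06 at 480 min. This was the largest fall of the list, 0.72 ± 0.084 (adjusted p = 2.52e-06, 1.65-fold lower). Slc3a2, the heavy chain of amino acid transporters that also belongs to the ATF4 list below, fell by 0.69 ± 0.0632 (adjusted p = 1.97e-07). Atp13a2 (-0.11, adjusted p = 0.267), Slc12a8 (-0.01, 0.921) and Slc18b1 (-0.20, 0.139) did not pass the test. The 2 enzymes that make hypusine went opposite ways: Dhps, deoxyhypusine synthase, fell by 0.41 ± 0.0664 (adjusted p = 8.98e-05) and Dohh, deoxyhypusine hydroxylase, rose by 0.41 ± 0.107 (0.00688). Their substrate genes Eif5a (0.07, adjusted p = 0.593) and Eif5a2 (0.06, 0.637) were not called. Oat, ornithine aminotransferase, rose by 0.36 ± 0.091 (adjusted p = 0.00585). Mat2b, a regulatory subunit of methionine adenosyltransferase, was called at 0.18 ± 0.0629 (adjusted p = 0.0461), but not with arrays left out one at a time in 5 of 6 cases (up to 0.32) or with the replicate block (0.0713). Apip of methionine salvage fell by 0.41 ± 0.12 (adjusted p = 0.0152), a call that ended once replicate 2 of 0 min (0.0783) or replicate 1 of 480 min (0.123) was dropped. The remaining members (Arg1, Arg2, Mri1, Mtap, Enoph1, Adi1, Sat2 and Oaz3) lay between -0.11 and 0.18 and were not called.

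**Figure D2:**
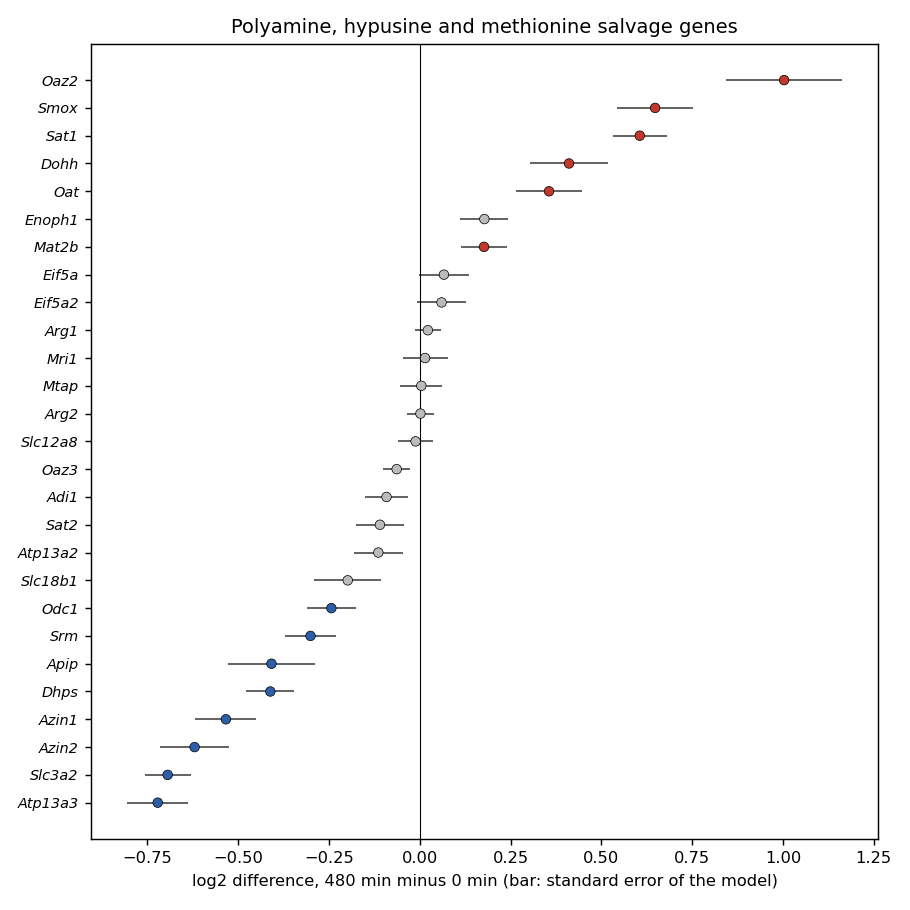
Log2 difference at 480 min against 0 min for the 27 measured polyamine, hypusine and methionine salvage genes, ordered by size, with bars for the SE of the model. Red points are the 6 genes called higher (Oaz2 at 1.00 at the top), blue points the 8 called lower (Atp13a3 at -0.72 at the bottom) and grey points the 13 that were not called.

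Genes of the mevalonate pathway and cholesterol synthesis rose almost as a block. Of 22 listed genes 19 were measured, the other 3 were not analysed here, and 18 of the 19 (94.7%) rose while 0 fell, against 9.73% of all genes higher. Their median change was 1.76, against 0.002 over all genes, and 15 of them rose by at least 1. Only Ggps1, the geranylgeranyl diphosphate synthase gene at a branch off the sterol route, was not called (-0.03 ± 0.057, adjusted p = 0.794). These 18 calls held in every setting tried.

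The promoters of 5 of the genes with the widest rises are shown, because sterol genes are known targets of sterol regulatory element-binding proteins (SREBPs), which act beside the CCAAT-binding factor NF-Y. Each is the 150 bases before the annotated start in RefSeq (GRCm38.p6), 5′ to 3′ on the gene's strand, with matches to CCAAT or its complement ATTGG and to the sterol element TCACCCCAC in capitals. They lie at chr13:8885456-8885605 (plus strand, Idi1), chrX:72918371-72918520 (plus, Nsdhl), chr13:119690201-119690350 (plus, Hmgcs1), chr8:122443423-122443572 (minus, Mvd) and chr10:76531455-76531604 (plus, Lss).
Idi1: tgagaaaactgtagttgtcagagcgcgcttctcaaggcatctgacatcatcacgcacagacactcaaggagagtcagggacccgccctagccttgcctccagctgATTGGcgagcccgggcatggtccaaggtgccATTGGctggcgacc
Nsdhl: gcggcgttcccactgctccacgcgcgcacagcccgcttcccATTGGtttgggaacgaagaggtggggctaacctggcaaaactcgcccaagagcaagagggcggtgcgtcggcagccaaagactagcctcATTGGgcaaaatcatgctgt
Hmgcs1: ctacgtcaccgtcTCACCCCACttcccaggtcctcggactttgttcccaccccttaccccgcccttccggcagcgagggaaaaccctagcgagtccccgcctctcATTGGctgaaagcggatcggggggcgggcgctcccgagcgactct
Mvd: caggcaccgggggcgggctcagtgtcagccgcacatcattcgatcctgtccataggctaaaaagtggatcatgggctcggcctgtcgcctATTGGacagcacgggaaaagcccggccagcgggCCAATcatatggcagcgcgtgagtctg
Lss: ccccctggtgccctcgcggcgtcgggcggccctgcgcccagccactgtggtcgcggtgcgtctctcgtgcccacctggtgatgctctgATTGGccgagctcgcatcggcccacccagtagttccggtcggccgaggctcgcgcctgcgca
Windows from 250 bases before to 50 after the start were searched on both strands. CCAAT was present in all 16 of the listed sterol genes with an available promoter, among them Ggps1, which was not called. It was present in 41.7% of 15614 measured genes with a promoter. The element TCACCCCAC was found in 1 of the 16, Hmgcs1 at position -137 from the start, and in 0.634% of all. The looser form TCACNCCAC was found in the same 1 gene and in 1.4% of all. Other forms of the sterol element were not searched.

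In the order of the pathway, Hmgcs1 makes the HMG-CoA from which mevalonate is formed. Hmgcs1 read 8.09, 8.09 and 8.29 on the 0 min arrays and 10.61, 10.70 and 10.59 on the 480 min arrays. Its rise was 2.48 ± 0.192, or 5.57-fold (adjusted p = 2.84e-08). The kinases that phosphorylate mevalonate followed: Mvk rose by 1.62 ± 0.0925 (adjusted p = 6.97e-10) and Pmvk by 1.13 ± 0.129 (1.99e-06). Mvd, the decarboxylase that forms isopentenyl diphosphate, read 6.28, 6.15 and 6.10 at 0 min and 8.41, 8.52 and 8.51 at 480 min. The groups lay far apart, and the rise was 2.31 ± 0.163 (adjusted p = 1.16e-08). Idi1, the isomerase of isopentenyl diphosphate, gave 7.59, 7.61 and 7.57 at 0 min and 10.20, 10.39 and 10.55 at 480 min. Every 480 min array was far above every 0 min array, a rise of 2.79 ± 0.226 or 6.89-fold (adjusted p = 5.27e-08). Fdps, farnesyl diphosphate synthase, rose by 1.98 ± 0.0995 (adjusted p = 1.46e-10).

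The committed sterol steps begin with squalene synthase, Fdft1 (rise of 1.88 ± 0.109, adjusted p = 8.82e-10), and squalene epoxidase, Sqle (1.94 ± 0.134, 9.38e-09). Lss folds the epoxide into lanosterol. Lss read 7.40, 7.32 and 7.16 on the 0 min arrays and 9.47, 9.44 and 9.59 on the 480 min arrays, a rise of 2.21 ± 0.121 (adjusted p = 4.36e-10). Cyp51, the lanosterol demethylase, rose by 2.27 ± 0.145 (adjusted p = 2.84e-09) and Msmo1, the C4-methyl oxidase, by 1.76 ± 0.148 (7.72e-08). Nsdhl encodes the dehydrogenase that removes the C4 carboxyl group. Nsdhl read 6.30, 6.41 and 6.29 on the 0 min arrays and 9.03, 8.81 and 8.88 on the 480 min arrays. The arrays within each time were close together and the times far apart, and the change was 2.57 ± 0.107 or 5.95-fold (adjusted p = 1.24e-11). Hsd17b7 (1.51 ± 0.0817), Sc5d (1.43 ± 0.0718) and Dhcr7 (1.07 ± 0.123), enzymes of the late steps, rose too (adjusted p = 3.92e-10, 1.46e-10 and 2.25e-06). The smallest rises were those of Tm7sf2 (0.69 ± 0.101) and Lbr (0.63 ± 0.0578), both sterol C14-reductases, and the isomerase Ebp (0.41 ± 0.0753, adjusted p = 0.00037).

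**Figure D3:**
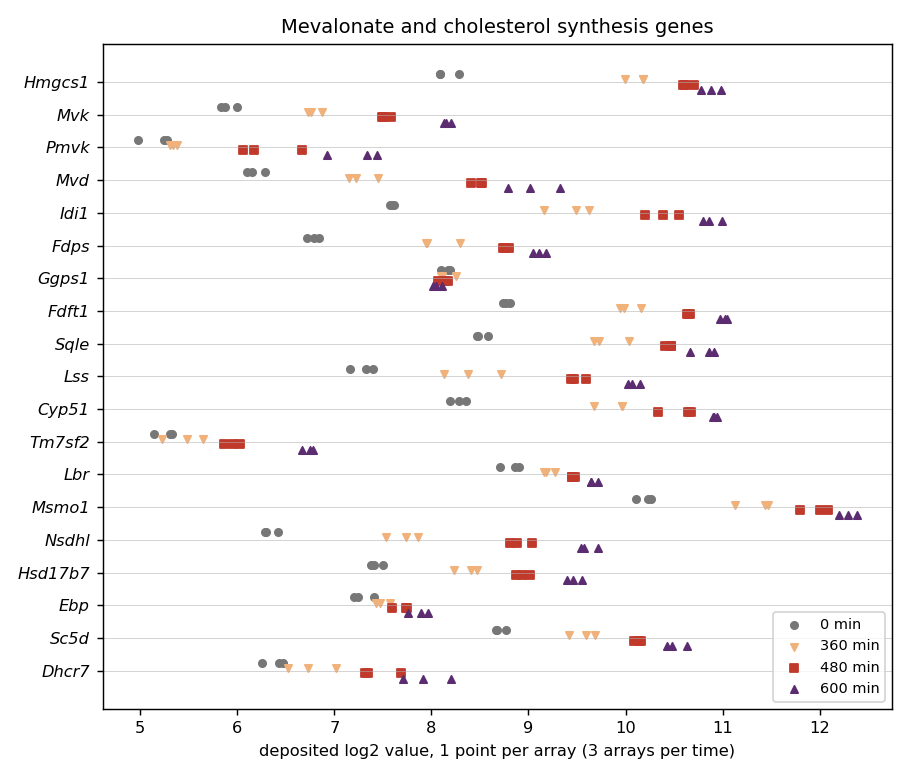
Deposited log2 values (horizontal axis) of the 19 measured mevalonate and cholesterol synthesis genes, 1 point per array, with 3 arrays each at 0 min (grey circles), 360 min (orange triangles), 480 min (red squares) and 600 min (purple triangles). In 18 genes the red squares all lie to the right of the grey circles, and in Ggps1 all 4 times overlap.

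Genes that control SREBP and carry sterols were split. Of 18 listed, 14 were measured: 5 rose (35.7%) and 1 fell, with a median of 0.10. Insig1 encodes the sterol-sensing anchor that holds SREBP in the endoplasmic reticulum and is itself an SREBP target. Insig1 read 9.01, 9.21 and 9.53 on the 0 min arrays and 11.62, 11.59 and 11.46 on the 480 min arrays, a rise of 2.31 ± 0.166 (adjusted p = 1.26e-08). Stard4, a sterol carrier protein gene, gave 6.76, 6.94 and 6.66 at 0 min and 8.93, 9.14 and 8.99 at 480 min, a rise of 2.23 ± 0.171 (adjusted p = 2.42e-08). Both were separated by about the size seen for the enzymes. Lpin1, a phosphatidate phosphatase gene, rose by 0.65 ± 0.091 (adjusted p = 1.86e-05), and Srebf2, which encodes SREBP2, by 0.54 ± 0.0691 (7.72e-06). Srebf1 lay at 0.16 ± 0.0666 and was not called (adjusted p = 0.0967). Mylip, a ubiquitin ligase for lipoprotein receptors, was called higher (0.42 ± 0.133, adjusted p = 0.0244) and Scap, the SREBP escort, lower (-0.18 ± 0.0614, 0.0405). Both calls ended in several leave-one-out fits, at up to 0.0974 and 0.167, and that of Scap also with the replicate block (0.0639). Neither form of the sterol element was found in the 11 promoters of this list, which says only that these letters are not in the window.

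Fatty acid genes rose as well. Of 16 measured genes of 17 listed, 13 rose (81.3%) and 1 fell, with a median of 0.88. Acly makes cytosolic acetyl-CoA from citrate. Acly read 8.99, 9.00 and 8.98 on the 0 min arrays and 10.24, 10.12 and 10.14 on the 480 min arrays, a rise of 1.18 ± 0.08 (adjusted p = 7.63e-09). Slc25a1, the mitochondrial citrate exporter, rose by 0.90 ± 0.0731 (adjusted p = 5.28e-08), and Acss2, acetyl-CoA synthetase, by 0.92 ± 0.0923 (5.50e-07). Fasn encodes fatty acid synthase. Fasn read 8.41, 8.49 and 8.54 on the 0 min arrays and 10.27, 10.12 and 10.10 on the 480 min arrays, a rise of 1.69 ± 0.105 or 3.22-fold (adjusted p = 2.03e-09). Scd2, a stearoyl-CoA desaturase, showed the largest rise of the list (1.92 ± 0.164, adjusted p = 9.37e-08). Elovl6, the elongase for saturated chains, rose by 1.18 ± 0.0851 (adjusted p = 1.26e-08) and Acsl4, an acyl-CoA synthetase, by 0.85 ± 0.0558 (4.15e-09). Me1, malic enzyme, which is also on the NRF2 list, rose by 1.06 ± 0.11 (adjusted p = 7.50e-07). Elovl1, an elongase for very long chains, was the member that fell (-0.29 ± 0.0698, adjusted p = 0.00361).

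Genes that license and fire replication origins were higher. All 27 listed genes were measured, 22 rose (81.5%), 2 fell (7.41%) and the median was 0.91. The MCM helicase is loaded at origins before S phase. Mcm6 read 7.55, 7.72 and 7.78 on the 0 min arrays and 9.92, 9.92 and 9.67 on the 480 min arrays. The groups were far apart, a rise of 2.15 ± 0.27 or 4.43-fold (adjusted p = 6.18e-06). Mcm7 (1.61 ± 0.16, adjusted p = 5.08e-07), Mcm5 (1.52 ± 0.172, 1.78e-06) and Mcm3 (1.48 ± 0.161, 1.28e-06) rose with it. Gins1 and Cdc45, the helicase cofactors, rose by 1.85 ± 0.15 (adjusted p = 4.88e-08) and 1.58 ± 0.144 (1.99e-07). Topbp1, which helps to activate the helicase, read 7.71, 7.61 and 7.79 at 0 min and 9.10, 8.89 and 8.94 at 480 min, a rise of 1.27 ± 0.142 (adjusted p = 1.66e-06). Recql4 (0.46 ± 0.048) and Gmnn (0.76 ± 0.0864), the licensing inhibitor geminin, rose less (adjusted p = 7.54e-07 and 1.88e-06). The members that fell were origin recognition subunits, Orc5 (-0.38 ± 0.0961, adjusted p = 0.00543) and Orc3 (-0.20 ± 0.0436, 0.00134).

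Promoters of Mcm6 and Topbp1 are shown as 2 examples with matches to the E2F motifs searched, TTTCCCGC, TTTGGCGC, TTTGCCGC and TTTCGCGC and their complements, which are in capitals. They are the 150 bases before the start on the gene's strand, at chr1:128359706-128359855 (minus strand) and chr9:103305177-103305326 (plus strand), in RefSeq GRCm38.p6.
Mcm6: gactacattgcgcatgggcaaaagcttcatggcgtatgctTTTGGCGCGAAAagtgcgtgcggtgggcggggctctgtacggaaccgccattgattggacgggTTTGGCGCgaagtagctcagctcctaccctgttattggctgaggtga
Topbp1: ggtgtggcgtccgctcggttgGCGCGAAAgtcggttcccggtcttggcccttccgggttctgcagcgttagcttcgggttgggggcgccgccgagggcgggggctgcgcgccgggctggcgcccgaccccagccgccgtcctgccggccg
In Mcm6 the first capitals hold overlapping matches on both strands, at positions -110 and -106 from the start, and a further match lies at -47. A match was present in 11 of 21 licensing promoters (52.4%), in 9 of 26 fork promoters (34.6%) and in 3.48% of all 15614. Orc3, which fell, is among the 11. The match is a description of the letters and not a binding site.

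At the replication fork 30 of 31 measured genes rose (96.8%) and 0 fell, with a median of 0.99 and 15 members at 1 or more. Chaf1b, a subunit of the factor that places histones on new DNA, had the largest rise of the list. Chaf1b read 4.88, 4.89 and 5.01 on the 0 min arrays and 7.59, 7.43 and 7.36 on the 480 min arrays, a rise of 2.54 ± 0.253 or 5.79-fold (adjusted p = 5.26e-07). Its partner Chaf1a rose by 1.87 ± 0.163 (adjusted p = 1.13e-07). Pcna, the sliding clamp, read 9.14, 9.41 and 9.21 at 0 min and 10.52, 10.61 and 10.72 at 480 min, a rise of 1.36 ± 0.137 (adjusted p = 5.70e-07). Lig1, which joins Okazaki fragments, rose by 1.50 ± 0.144 (adjusted p = 3.68e-07), and Pole, the catalytic subunit of the leading-strand polymerase, by 1.45 ± 0.131 (1.85e-07). The primase genes Prim2 (1.01 ± 0.0827, adjusted p = 5.63e-08) and Prim1 (0.83 ± 0.0827, 5.33e-07) and the maintenance methyltransferase Dnmt1 (0.99 ± 0.1, 5.53e-07) were higher by smaller amounts. In these bulk cultures a larger share of cells in S phase and more RNA per cell cannot be told apart.

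Nucleotide synthesis had 8 of 22 measured genes higher (36.4%), 4 lower (18.2%) and a median of 0.00. Of all genes 9.73% were higher and 14.5% lower. The largest rises lay in deoxynucleotide supply. Tk1, thymidine kinase, read 5.87, 5.70 and 5.61 at 0 min and 7.66, 7.51 and 7.53 at 480 min, with groups far apart and a rise of 1.85 ± 0.136 (adjusted p = 1.37e-08). The ribonucleotide reductase genes Rrm2 (1.11 ± 0.147, adjusted p = 1.04e-05) and Rrm1 (0.68 ± 0.119, 0.000222), Dck (0.95 ± 0.125, 9.63e-06) and Tyms (0.57 ± 0.112, 0.000667) also rose, as did Umps of pyrimidine synthesis (0.44 ± 0.0707, 9.43e-05). Dhodh, the mitochondrial step of pyrimidine synthesis, fell by 0.74 ± 0.103 (adjusted p = 1.88e-05), with Dtymk (-0.50, adjusted p = 5.67e-06) and Prps1 (-0.21, 0.00355).

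Of 31 measured G1 cyclins, E2F and RB family genes 15 rose (48.4%) and 3 fell (9.68%), with a median of 0.25. Mybl2 (1.07 ± 0.112, adjusted p = 8.86e-07) and E2f1 (1.01 ± 0.144, 2.39e-05), transcription factors of the G1/S transition, rose by about 1. E2f1 read 5.61, 5.50 and 5.54 on the 0 min arrays and 6.71, 6.55 and 6.43 on the 480 min arrays. The groups did not overlap. Cdc25a (0.85 ± 0.118, adjusted p = 1.72e-05), a phosphatase that activates cyclin-dependent kinases, Skp2 (0.79 ± 0.12, 4.61e-05), which targets a kinase inhibitor for degradation, and Ccna2, cyclin A2 (0.78 ± 0.0995, 7.21e-06), were higher. Rbl1 (0.75 ± 0.105, 2.02e-05) and Tfdp1 (0.48 ± 0.0571, 3.06e-06) rose as well. Ccnd1, cyclin D1, went the other way. Ccnd1 read 10.32, 10.25 and 10.23 on the 0 min arrays and 9.68, 9.63 and 9.70 on the 480 min arrays, a fall of 0.60 ± 0.0866 (adjusted p = 2.84e-05). Cdk6, a cyclin D partner, fell by 0.37 ± 0.0683 (adjusted p = 0.000377) and E2f5 by 0.50 ± 0.0868 (0.000197).

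Homologous recombination and checkpoint genes showed 13 of 22 measured members higher (59.1%) and 0 lower, with a median of 0.24. Brca1, a scaffold of double-strand break repair, read 4.83, 4.78 and 4.55 at 0 min and 6.60, 6.50 and 6.57 at 480 min, a rise of 1.84 ± 0.182 or 3.57-fold (adjusted p = 4.98e-07). The end-resection nuclease Exo1 (1.70 ± 0.191, adjusted p = 1.76e-06), the checkpoint kinase Chek2 (1.48 ± 0.158, 1.01e-06), the recombination motor Rad54l (1.46 ± 0.138, 2.81e-07), the helicase Brip1 (1.34 ± 0.131, 4.60e-07) and Fancb (1.30 ± 0.146, 1.76e-06) all rose by more than 1. Nbn (0.78 ± 0.0835) and Blm (0.72 ± 0.0818) rose by less (adjusted p = 1.03e-06 and 1.81e-06).

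In the G2 and mitosis list 25 of 35 measured genes rose (71.4%) and 0 fell, with a median of 0.42 and 1 member above 1. That member was Nek2, a centrosome kinase. Nek2 read 6.56, 6.46 and 6.17 on the 0 min arrays and 7.38, 7.43 and 7.59 on the 480 min arrays, a rise of 1.07 ± 0.131 (adjusted p = 4.58e-06). Aurkb (0.96 ± 0.108, adjusted p = 1.78e-06) and Incenp (0.84 ± 0.0924, 1.37e-06) of the chromosomal passenger complex, Cdk1 (0.78 ± 0.103, 1.01e-05) and the topoisomerase Top2a (0.70 ± 0.0879, 6.24e-06) followed. Bub1b (0.68 ± 0.109), Mad2l1 (0.57 ± 0.0854) and Racgap1 (0.50 ± 0.0748) rose by 0.50 to 0.68 (adjusted p = 8.43e-05, 3.91e-05 and 3.79e-05). A CCAAT match was present in 23 of 29 promoters of this list (79.3%).

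Few histone genes rose. Of 28 measured replication-dependent histone genes 1 rose (3.57%) and 8 fell (28.6%), with a median of -0.05. The genes are near-identical copies that a probe set can share, so the values of single members are uncertain, and their mRNAs largely lack poly(A) tails. H1f2, a linker histone gene, gave 7.75, 8.33 and 7.62 at 0 min and 5.11, 5.19 and 5.86 at 480 min. Replicate 3 of 480 min was the highest of its group but still below every 0 min array, and the gene fell by 2.51 ± 0.268 (5.71-fold lower, adjusted p = 1.03e-06). H2bc18 fell by 1.04 ± 0.161 (adjusted p = 5.72e-05). H2bc21 (-0.47, adjusted p = 0.000443), H3c15 (-0.50, 0.000806) and H1f3 (-0.44, 0.00182) were lower as well. H2bc4 (-0.74, adjusted p = 0.00976) was not called once replicate 2 of 0 min (0.0787) or replicate 1 of 480 min (0.0747) was dropped, nor was H2bc8 (-0.52, 0.01) once replicate 2 of 0 min was dropped (0.0799). H4f16, the member that rose (0.20, adjusted p = 0.0234), lost its call in 4 of 6 leave-one-out fits. Over settings that left out 1 array the list had 0 to 2 members higher and 6 to 8 lower.

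Among genes whose products handle histones and their mRNAs, rises stood out more than falls. Of 19 measured histone variants, chaperones and histone mRNA factors 9 rose (47.4%) and 3 fell (15.8%). Of all genes 9.73% rose and 14.5% fell, so the share of falls was near that of all genes. Asf1b, a chaperone of histones H3 and H4, rose by 1.17 ± 0.116 (adjusted p = 4.77e-07), Nasp by 0.97 ± 0.16 (0.000113) and the acetyltransferase Hat1 by 0.78 ± 0.0964 (4.84e-06). Slbp, which binds the stem-loop of histone mRNAs, read 7.57, 7.52 and 7.28 at 0 min and 8.19, 8.27 and 8.34 at 480 min, a rise of 0.81 ± 0.109 (adjusted p = 1.29e-05). Eri1, a nuclease that trims histone mRNA ends, rose by 0.88 ± 0.0963 (adjusted p = 1.37e-06), and Fam111a by 1.05 ± 0.162 (5.56e-05). Lsm10 of the U7 particle (-0.59, adjusted p = 0.000152), H2ax (-0.52, 6.13e-05) and the centromeric Cenpa (-0.37, 0.00253) fell.

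**Figure D4:**
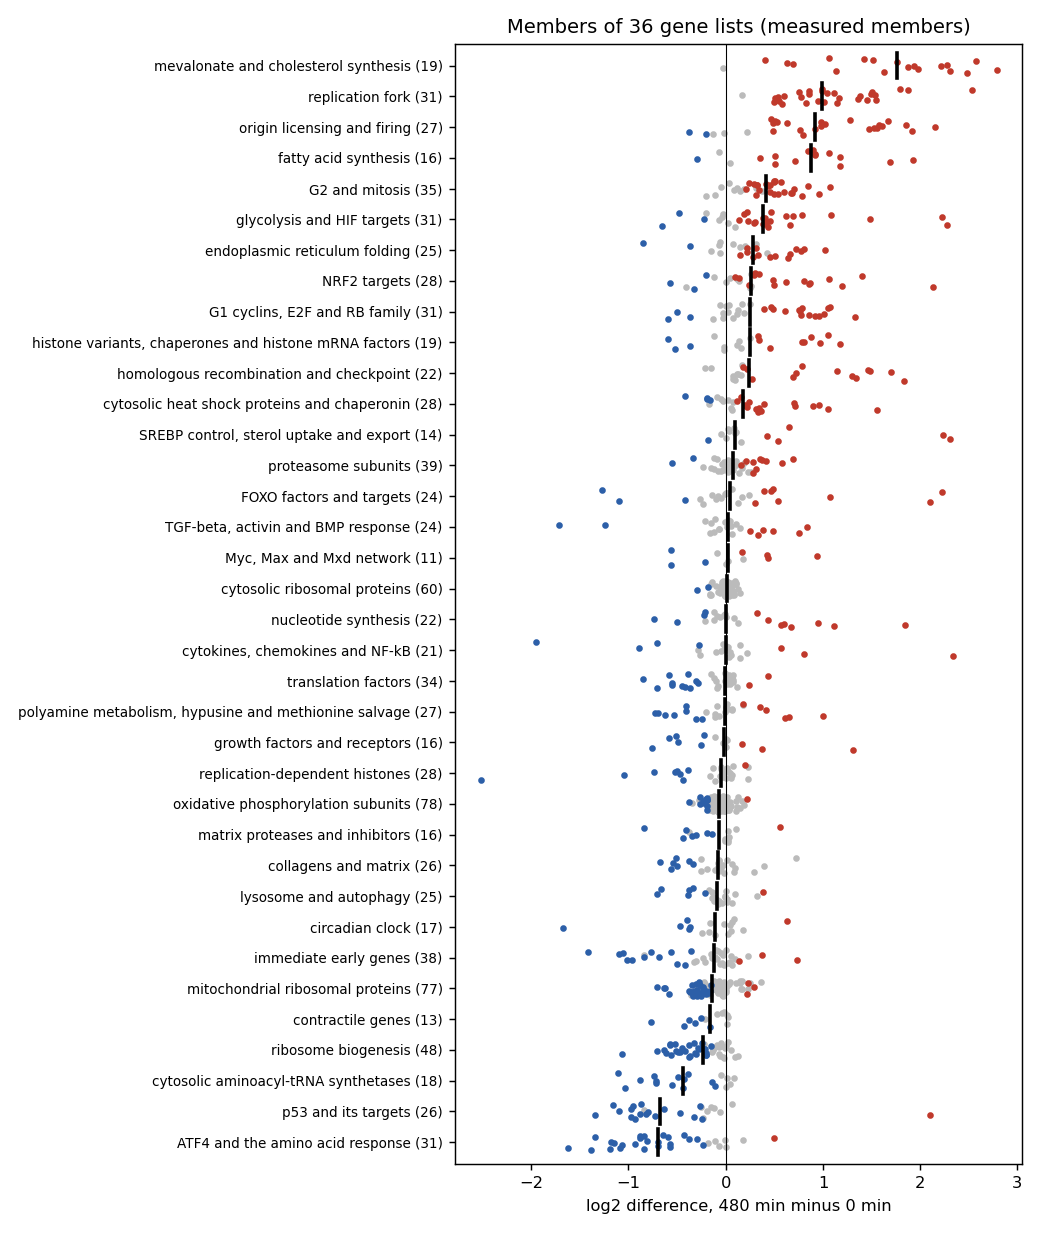
Log2 difference at 480 min against 0 min for the measured members of 36 gene lists, 1 point per gene, red where called higher, blue where called lower and grey otherwise, with a black bar at each list's median and the number of members in brackets. Lists are ordered by median, from mevalonate and cholesterol synthesis (1.76) to ATF4 and the amino acid response (-0.69).

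The list of ATF4 targets and amino acid response genes had the lowest median. ATF4 is the transcription factor translated when eIF2 is phosphorylated, and it drives amino acid synthesis and uptake. Of 31 measured genes of 32 listed, 24 fell (77.4%, against 14.5% of all genes) and 1 rose, with a median of -0.69 and 8 members at -1 or below. Atf4 read 10.41, 10.40 and 10.33 on the 0 min arrays and 8.93, 9.01 and 9.04 on the 480 min arrays. The groups were separated by more than 1 unit, and the gene fell by 1.38 ± 0.17, or 2.61-fold (adjusted p = 4.82e-06). Trib3, a pseudokinase induced by ATF4, fell by 1.62 ± 0.222 (adjusted p = 1.57e-05), Nupr1, a stress-induced chromatin protein, by 1.34 ± 0.164 (4.35e-06) and Ddit3, which encodes CHOP, by 1.19 ± 0.158 (1.06e-05). Asns, asparagine synthetase, read 11.70, 11.57 and 11.64 at 0 min and 11.09, 11.13 and 10.99 at 480 min, a narrower fall of 0.57 ± 0.0566 with arrays of each time close together (adjusted p = 5.30e-07). Slc7a5, the light chain of a large neutral amino acid transporter, fell by 1.18 ± 0.0976 (adjusted p = 6.27e-08), Aldh18a1 of proline synthesis by 0.93 ± 0.102 (1.36e-06) and Vldlr by 0.60 ± 0.0775 (8.61e-06). Slc7a11, the cystine transporter, lay at -0.57 (adjusted p = 0.0134) and was not called without replicate 1 of 0 min (0.0989). Ddit4, an inhibitor of mTORC1 signalling and the member that rose (0.50 ± 0.177, adjusted p = 0.045), lost its call in 5 of 6 leave-one-out fits and with the replicate block (0.0667).

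The motifs TGATGCAA and TGATGAAA, forms of the composite element that ATF4 and C/EBP proteins bind, were searched on both strands, and 2 promoters of the list with a match are shown with the match in capitals. They are the 150 bases before the start on the gene's strand, at chr7:126625471-126625620 (minus strand) and chr6:7693210-7693359 (minus strand), in RefSeq GRCm38.p6.
Nupr1: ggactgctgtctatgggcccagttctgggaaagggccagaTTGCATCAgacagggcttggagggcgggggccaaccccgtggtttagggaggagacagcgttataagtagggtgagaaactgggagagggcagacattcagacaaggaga
Asns: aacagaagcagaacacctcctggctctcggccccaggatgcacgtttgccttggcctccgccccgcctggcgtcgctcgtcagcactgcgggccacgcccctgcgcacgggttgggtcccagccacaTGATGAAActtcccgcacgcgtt
In Nupr1 the match reads as the complement, at position -110 from the start, and in Asns it lies at -23. A match was found in 7 of 26 promoters of this list (26.9%) and in 1.81% of all 15614.

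Cytosolic aminoacyl-tRNA synthetase genes fell in 13 of 18 measured cases (72.2%) with 0 rises and a median of -0.44. Yars read 10.22, 10.01 and 10.17 at 0 min and 9.19, 9.11 and 8.77 at 480 min, a fall of 1.11 ± 0.108 (adjusted p = 3.90e-07). Cars fell by 1.03 ± 0.107 (adjusted p = 7.54e-07), Mars1 by 0.88 ± 0.103 (2.84e-06), Tars by 0.74 ± 0.0741 (5.33e-07), Lars by 0.72 ± 0.085 (3.15e-06) and Iars by 0.71 ± 0.09 (6.38e-06). Gars and Eprs fell by 0.55 and 0.44 (adjusted p = 5.42e-06 and 1.66e-06).

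Of 30 genes listed for p53 and its targets 26 were measured. Trp53, the gene of p53 itself, and the targets Cdkn1a, Bax and Gdf15 were not analysed here. Among the 26 measured genes 17 fell (65.4%) and 1 rose, with a median of -0.68. Eda2r, which encodes a receptor of the TNF receptor superfamily, gave 9.68, 9.48 and 9.38 at 0 min and 8.24, 8.09 and 8.18 at 480 min, a fall of 1.34 ± 0.211 (adjusted p = 6.79e-05). Psrc1 fell by 1.16 ± 0.16 (adjusted p = 1.66e-05), the kinase Plk2 by 1.10 ± 0.117 (1.01e-06), the nuclease Aen by 0.97 ± 0.111 (2.10e-06), Dcxr by 0.87 ± 0.0883 (5.98e-07), Ei24 by 0.63 ± 0.0574 (1.97e-07) and Ccng1 by 0.24 ± 0.0406 (0.00013). Sesn1, a stress-inducible inhibitor of mTORC1 signalling that is also a FOXO target, was the member that rose. Sesn1 read 7.00, 6.93 and 7.06 on the 0 min arrays and 9.02, 9.25 and 9.03 on the 480 min arrays. The rise was 2.10 ± 0.211, or 4.29-fold (adjusted p = 5.35e-07).

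Ribosome biogenesis genes fell, while few cytosolic ribosomal protein genes passed the test. Of 48 measured biogenesis genes 29 fell (60.4%) and 0 rose, with a median of -0.23 and 1 member below -1. Rrp12, a ribosome export factor, was that member. Rrp12 read 8.83, 8.81 and 8.81 on the 0 min arrays and 7.86, 7.70 and 7.70 on the 480 min arrays, a fall of 1.06 ± 0.105 (adjusted p = 4.94e-07). Noc3l (-0.70, adjusted p = 1.05e-06), Nob1 (-0.63, 8.94e-07), Bop1 (-0.61, 9.08e-07), Rrp9 (-0.56, 1.04e-05), Heatr1 (-0.51, 6.48e-06) and Utp15 (-0.49, 7.49e-06) fell by 0.49 to 0.70, and nucleostemin, Gnl3, by 0.44 ± 0.0592 (1.15e-05). Of 60 cytosolic ribosomal protein genes 2 fell (3.33%), Rpl39l (-0.30, adjusted p = 0.0174) and Rplp2 (-0.18, 0.0418), 0 rose and the median was 0.01. Both calls ended in 4 or 5 of the 6 leave-one-out fits, that of Rplp2 also with the replicate block (0.0653), and processed copies of these genes in the genome make single values uncertain. Mitochondrial ribosomal proteins showed 27 of 77 lower (35.1%) and 3 higher, with a median of -0.14. The 3 became 1 without replicate 1 or 3 of 0 min and without replicate 2 or 3 of 480 min. Mrpl51 fell by 0.63 ± 0.046 (adjusted p = 1.37e-08), Mrpl57 by 0.70 ± 0.122 (0.000185), Mrpl50 by 0.63 ± 0.115 (0.000296) and Mrpl2 by 0.58 ± 0.08 (1.63e-05).

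Translation factors had 11 of 34 measured genes lower (32.4%), 2 higher and a median of -0.01. Eif4a2, an RNA helicase of initiation, read 11.11, 11.21 and 10.98 at 0 min and 10.29, 10.09 and 10.36 at 480 min, a fall of 0.85 ± 0.0981 (adjusted p = 2.38e-06). Eif2s2, the beta subunit of eIF2, fell by 0.71 ± 0.0644 (adjusted p = 1.89e-07), Eif6 by 0.58 ± 0.0755 (8.26e-06), Eif3d by 0.56 ± 0.0607 (1.29e-06), and Eif2b5 and Eif2b3 of the exchange factor of eIF2 by 0.55 and 0.45 (1.60e-06 and 4.45e-05). Eif5 rose by 0.44 ± 0.0725 (adjusted p = 0.000122).

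Folding genes of the endoplasmic reticulum rose in 14 of 25 measured cases (56%) and fell in 2, with a median of 0.29. Hspa5 encodes BiP, the main chaperone of that compartment. Hspa5 read 11.26, 11.33 and 11.19 on the 0 min arrays and 11.85, 11.86 and 11.98 on the 480 min arrays, a rise of 0.64 ± 0.112 (adjusted p = 0.000202). Sdf2l1 (1.02 ± 0.192, adjusted p = 0.000431), Manf (0.80 ± 0.127, 6.98e-05), Dnajc3 (0.77 ± 0.113, 3.13e-05), Creld2 (0.72 ± 0.132, 0.000323), calreticulin, Calr (0.66 ± 0.0964, 3.20e-05), and Hsp90b1 (0.45 ± 0.0835, 0.000339) were higher. Atf6, the gene of a membrane-bound stress transcription factor, fell by 0.85 ± 0.083 (adjusted p = 4.49e-07) and Derl1 by 0.37 ± 0.0745 (0.000784).

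In the cytosol 16 of 28 measured heat shock and chaperonin genes rose (57.1%) and 4 fell (14.3%), with a median of 0.18. The share of falls was near the 14.5% of all genes. Hspa4l, an Hsp110 family member, had the largest rise. Hspa4l read 8.74, 8.80 and 8.95 on the 0 min arrays and 10.49, 10.40 and 10.26 on the 480 min arrays, a rise of 1.55 ± 0.169 (adjusted p = 1.28e-06). Hsph1 (1.05 ± 0.133, adjusted p = 6.81e-06), Bag3 (0.96 ± 0.157, 0.000101), Dnaja1 (0.72 ± 0.108, 4.09e-05), Fkbp4 (0.70 ± 0.0888, 6.35e-06) and the constitutive Hspa8 (0.37 ± 0.0467, 6.71e-06) rose with it. The mitochondrial chaperone Hspa9 fell by 0.42 ± 0.0488 (adjusted p = 2.57e-06), and the chaperonin subunits Cct8 (-0.20, 0.00113) and Cct5 (-0.16, 0.00645) fell slightly.

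NRF2 targets, the antioxidant and detoxification genes under the transcription factor NRF2, were higher in 16 of 28 measured cases (57.1%) and lower in 3, with a median of 0.26. Nqo1 read 6.46, 6.74 and 6.76 on the 0 min arrays and 8.71, 8.77 and 8.87 on the 480 min arrays. The groups of this quinone reductase gene were about 2 units apart, a rise of 2.13 ± 0.256 or 4.37-fold (adjusted p = 3.72e-06). Cbr3, a carbonyl reductase, rose by 1.40 ± 0.205 (adjusted p = 3.19e-05) and Gclm, the modifier subunit of glutathione synthesis, by 1.19 ± 0.163 (1.54e-05). Gsr (0.86 ± 0.129, adjusted p = 4.05e-05), Gsta4 (0.86 ± 0.118, 1.45e-05), Pgd (0.80 ± 0.0977, 4.17e-06) and Ugdh (0.29 ± 0.0405, 1.73e-05) rose as well. Nfe2l2, which encodes NRF2 itself, fell by 0.32 ± 0.0639 (adjusted p = 0.000683), and Ephx1 by 0.20 ± 0.0402 (0.00063). Hmox1, haem oxygenase, was at -0.41 ± 0.156 and was not called (adjusted p = 0.0678). Some other settings called Hmox1 lower and others did not. It was called without the 2 arrays that stood apart (adjusted p = 0.00395) and with only the arrays of the 2 times compared (0.0123). The antioxidant element TGACNNNGC was present in 9 of 23 promoters of this list (39.1%) and in 15.2% of all. Nfe2l2, which fell, is among the 9.

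Glycolysis and HIF targets showed 22 of 31 measured genes higher (71.0%) and 3 lower (9.68%), with a median of 0.39. Pfkl, the liver-type phosphofructokinase gene, read 7.01, 7.13 and 7.13 at 0 min and 9.54, 9.30 and 9.26 at 480 min, a rise of 2.27 ± 0.187 or 4.84-fold (adjusted p = 5.92e-08). Bnip3, a mitophagy receptor gene induced by hypoxia, also belongs to the FOXO list. Bnip3 read 6.25, 6.80 and 6.47 on the 0 min arrays and 8.71, 8.69 and 8.79 on the 480 min arrays, a rise of 2.23 ± 0.263 (adjusted p = 2.98e-06). Pdk1, which restrains pyruvate dehydrogenase, rose by 1.48 ± 0.136 (adjusted p = 2.16e-07), the collagen prolyl hydroxylases P4ha2 and P4ha1 by 1.08 ± 0.17 (7.02e-05) and 0.78 ± 0.118 (4.45e-05), and Pfkm by 0.67 ± 0.0816 (4.57e-06). Pgk1 (0.30 ± 0.0462, adjusted p = 6.00e-05) and Pfkfb4 (0.40 ± 0.0659, 0.000111) rose less. Hk2, hexokinase 2, fell by 0.65 ± 0.128 (adjusted p = 0.000653), Ndrg1 by 0.48 ± 0.114 (0.00321) and Pfkfb3 by 0.22 ± 0.0579 (0.00632).

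FOXO factors and targets had 8 of 24 higher (33.3%) and 3 lower (12.5%), against 9.73% and 14.5% of all genes. Besides Bnip3 and Sesn1 the rises included Ccng2 (1.07 ± 0.189, adjusted p = 0.000215), Sesn3 (0.54 ± 0.0902, 0.000135), catalase, Cat (0.48 ± 0.0914, 0.000432), and Rbl2 (0.39 ± 0.0962, 0.00424). Gadd45a, a growth arrest gene, fell by 1.28 ± 0.183 (adjusted p = 2.49e-05) and Txnip, an inhibitor of thioredoxin, by 1.10 ± 0.149 (1.42e-05). In the Myc, Max and Mxd network 4 of 11 rose and 3 fell. Myc read 9.29, 9.42 and 9.14 on the 0 min arrays and 8.68, 8.72 and 8.77 on the 480 min arrays, a fall of 0.56 ± 0.136 (adjusted p = 0.00397). The Max-binding repressor Mxi1 rose by 0.94 ± 0.108 (adjusted p = 2.12e-06), Mlx by 0.43 ± 0.108 (0.0057) and Mxd4 by 0.43 ± 0.109 (0.00552), while Mga fell by 0.56 ± 0.116 (0.00102). Mnt and Max were called at 0.17 and -0.21 (adjusted p = 0.0454 and 0.0286) and lost the call in 4 and 5 leave-one-out fits, Mnt also with the replicate block (0.0707).

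Immediate early genes, the first transcripts of growth factor signalling, were lower at this late time in 12 of 38 measured cases (31.6%) and higher in 3 (1 without replicate 1 of 0 min), with a median of -0.12. Ccn2, a matrix-associated growth regulator, read 9.43, 9.58 and 9.47 at 0 min and 8.14, 7.99 and 8.11 at 480 min, a fall of 1.41 ± 0.244 (adjusted p = 0.000177). Dusp4, a MAP kinase phosphatase, fell by 1.09 ± 0.186 (adjusted p = 0.000154), Ccn1 by 1.06 ± 0.219 (0.000997), Ier5 by 1.01 ± 0.143 (2.10e-05), Atf3 by 0.84 ± 0.169 (0.000763), Klf6 by 0.69 ± 0.0973 (2.22e-05) and Jun by 0.50 ± 0.085 (0.000145). Dusp1 rose by 0.37 ± 0.0849 (adjusted p = 0.0023). Ier3 (0.73, adjusted p = 0.0144) was not called without replicate 1 of 0 min (0.0785).

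Secreted signals and receptors changed gene by gene. Of 21 cytokine, chemokine and NF-kB genes 3 rose (14.3%) and 4 fell (19%), near the 9.73% and 14.5% of all genes, and only the single genes are described. Cxcl5, a neutrophil chemokine, read 6.22, 6.53 and 6.54 at 0 min and 8.51, 8.88 and 8.92 at 480 min, a rise of 2.34 ± 0.254 or 5.07-fold (adjusted p = 1.22e-06). Ccl2, a monocyte chemokine, rose by 0.80 ± 0.119 (adjusted p = 3.83e-05) and Nfkbia by 0.57 ± 0.143 (0.00525). Cd80, which encodes a costimulatory ligand of T cells, gave 7.27, 7.04 and 6.75 at 0 min and 4.76, 4.85 and 5.59 at 480 min. Replicate 3 of 480 min stood above its companions and below the 0 min arrays, and the gene fell by 1.95 ± 0.247 (3.88-fold lower, adjusted p = 6.40e-06). Ptgs2, inducible cyclooxygenase, fell by 0.89 ± 0.155 (adjusted p = 0.000195) and Vcam1 by 0.71 ± 0.131 (0.000344).

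Of 16 growth factor and receptor genes 3 rose (18.8%) and 6 fell (37.5%). The 3 rises became 1 without replicate 2 of 0 min, without replicate 2 of 480 min and with the replicate block, and 2 when any other array was left out. Pdgfra, a platelet-derived growth factor receptor, rose from 6.59, 6.97 and 6.98 at 0 min to 8.38, 8.10 and 8.00 at 480 min, a change of 1.31 ± 0.17 (adjusted p = 8.71e-06). The ligand gene Pdgfa fell by 0.76 ± 0.079 (adjusted p = 8.52e-07), Igf1r by 0.48 ± 0.0698 (2.62e-05), Hbegf by 0.58 ± 0.14 (0.00357) and Nrg1 by 0.51 ± 0.0964 (0.000437). In the TGF-beta, activin and BMP list 6 of 24 rose and 2 fell. The falls were large and lay in activin signalling: Fst, the activin-binding follistatin, fell by 1.71 ± 0.289 (adjusted p = 0.000141) and Inhba, the activin A subunit, by 1.24 ± 0.275 (0.00189). Id3 (0.84 ± 0.177, adjusted p = 0.00122), Tgfb3 (0.76 ± 0.109, 2.66e-05), Smad2 (0.49 ± 0.0934, 0.000489), Smad4 (0.38 ± 0.0669, 0.000197) and Tgfb1 (0.33 ± 0.0663, 0.000684) were higher.

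The clock list had 1 of 17 measured genes higher and 5 lower (29.4%), or 3 lower without replicate 3 of 480 min. Nr1d1, which encodes the repressor REV-ERB alpha, read 8.52, 8.63 and 8.23 at 0 min and 6.79, 6.39 and 7.19 at 480 min, a fall of 1.67 ± 0.269 (3.18-fold lower, adjusted p = 8.85e-05). Bhlhe40 rose by 0.63 ± 0.0976 (adjusted p = 5.64e-05) and its relative Bhlhe41 fell by 0.39 ± 0.075 (0.000483).

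Some matrix and contractile genes fell. Collagens and matrix genes had 7 of 26 lower (26.9%) and 0 higher, among them Thbs1, thrombospondin 1 (-0.68, adjusted p = 0.00234), Col5a2 (-0.56, 9.03e-05), tenascin C, Tnc (-0.54, 0.00464), Loxl4 (-0.51, 0.000703) and Col8a1 (-0.50, 0.000312). Matrix proteases and inhibitors had 7 of 16 lower and 1 higher: the activator Plau fell by 0.84 ± 0.152 (adjusted p = 0.000304) and Plat rose by 0.56 ± 0.132 (0.00329). The count of falls dropped to 4 when any 1 of replicates 1 and 2 of either time was left out. Contractile genes had 6 of 13 lower (46.2%), from Myl9, a myosin light chain (-0.77, adjusted p = 0.00128), and Tagln (-0.43, 1.65e-05) to Acta2, smooth muscle actin (-0.16, 0.00152).

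Lysosome and autophagy genes had 6 of 25 lower (24%, against 14.5% of all genes) and 1 higher. Sqstm1, the autophagy receptor p62, read 12.11, 12.17 and 12.17 at 0 min and 11.54, 11.42 and 11.38 at 480 min, a fall of 0.70 ± 0.0506 (adjusted p = 1.26e-08). Atg12 fell by 0.66 ± 0.0715 (adjusted p = 1.19e-06), Mcoln1 by 0.38 ± 0.067 (0.000208) and Becn1 by 0.33 ± 0.0517 (5.75e-05). Of 39 proteasome subunit genes 10 rose (25.6%) and 2 fell, led by Psmd5 (0.70, adjusted p = 0.000159), Psmd1 (0.58, 5.31e-07) and Psmd7 (0.35, 2.93e-06), with Psmd10 (-0.55, 0.00677) and Psmd8 (-0.33, 9.72e-05) lower. Oxidative phosphorylation subunits had 11 of 78 lower, and this 14.1% is near the 14.5% of all genes. Their median was -0.06 and no member changed by more than 0.37.

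Several of the largest changes lie outside the lists. Ranbp3l read 6.35, 5.78 and 5.74 on the 0 min arrays and 8.03, 8.31 and 8.78 on the 480 min arrays, a rise of 2.42 ± 0.334 (adjusted p = 1.71e-05). Among the falls, Btbd19 (-1.80 ± 0.237, adjusted p = 1.00e-05), Tcta (-1.75 ± 0.144, 5.92e-08), the Ras effector gene Rin1 (-1.59 ± 0.135, 8.53e-08), Chchd5 (-1.51 ± 0.11, 1.30e-08) and the pseudokinase gene Stk40 (-1.47 ± 0.227, 5.71e-05) each had 480 min arrays wholly below the 0 min arrays. Ankrd1, a YAP-responsive ankyrin repeat gene, fell by 1.44 ± 0.272 (adjusted p = 0.000447), Ifrd1 by 1.40 ± 0.157 (1.66e-06) and Zfr, an RNA-binding zinc finger gene, by 1.38 ± 0.0877 (2.84e-09).

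The 480 min arrays were next compared with those at 360 and 600 min. Both comparisons use the same 480 min arrays. Against 360 min 58 genes were higher (0.291%) and 64 lower (0.321%). Against 480 min the 600 min arrays had 30 genes higher (0.15%) and 6 lower (0.0301%). With quantile normalization repeated the splits were 71 and 40 for the first and 36 and 16 for the second. These counts changed whichever array was left out. Leaving out the 360 min arrays in turn, replicates 1, 2 and 3, gave 42, 61 and 90 calls against 360 min in place of 122. Leaving out the 480 min arrays gave 77, 77 and 62. For the 36 calls between 480 and 600 min the same step gave 23, 18 and 34 for the 480 min arrays and 47, 26 and 25 for the 600 min arrays. Without the 2 arrays that stood apart they were 237 and 91, and with the replicate block 65 and 21. Of 38 named genes called against 360 min 19 kept the call whichever of the 6 arrays was left out, and of 19 named between 480 and 600 min 10 did.

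Sterol synthesis genes rose further after 360 min. Of the 19 measured genes 14 were higher at 480 than at 360 min and 6 higher at 600 than at 480 min, with 0 lower in either interval. Leaving out replicates 1 and 2 of 360 min in turn turned the 14 into 8 and 9, leaving out replicate 3 of 480 min gave 9 and the other arrays 11 to 13, while the 6 became 5 or 6. With the replicate block the counts were 10 and 5. The medians of the list against 0 min were 1.10 at 360 min, 1.76 at 480 min and 2.24 at 600 min, all taken from the same 0 min arrays. Nsdhl read 7.53, 7.73 and 7.86 at 360 min, 9.03, 8.81 and 8.88 at 480 min, then 9.57, 9.72 and 9.54 at 600 min. The times did not overlap, with steps of 1.20 ± 0.107 (adjusted p = 1.30e-05) and 0.70 ± 0.107 (0.00386). Pmvk gave 5.34, 5.31 and 5.37, then 6.17, 6.06 and 6.67, then 7.33, 7.43 and 6.93. Its steps were 0.96 ± 0.129 (adjusted p = 0.00112) and 0.93 ± 0.129 (0.00176). The second was not called with only the arrays of the 2 times compared (0.211). Mvd (1.21 ± 0.163, adjusted p = 0.00112) and Lss (1.09 ± 0.121, 0.000149) rose by more than 1 from 360 to 480 min and were not called between 480 and 600 min (0.56, 0.236, and 0.58, 0.0583). Mvk, Hsd17b7, Sc5d and Tm7sf2 were called higher in both intervals, though Sc5d (0.0274) lost the second call in 5 of 6 leave-one-out fits and Tm7sf2 (0.0204) the first in 4, and the same calls ended with the replicate block (0.0745 and 0.0518). Idi1 (0.96, adjusted p = 0.0621), Msmo1 (0.62, 0.0682), Hmgcs1 (0.52, 0.316) and Ebp (0.20, 0.312) did not pass the test against 360 min.

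Fatty acid genes showed 9 of 16 higher than at 360 min and 5 higher at 600 min than at 480 min, with 6 to 10 in the first interval when 1 array was left out, while the second interval kept 2 without replicate 2 of 480 min and 3 when either of replicates 2 and 3 of 600 min was dropped. With the replicate block the counts were 9 and 3. Elovl6 read 7.71, 7.78 and 8.07 at 360 min, 8.76, 8.68 and 8.81 at 480 min, then 9.56, 9.47 and 9.37 at 600 min. No array of one time overlapped the next, with steps of 0.89 ± 0.0851 (adjusted p = 1.81e-05) and 0.72 ± 0.0851 (0.000443). Acss2, from 5.33, 5.56 and 5.52 at 360 min, stepped up by 0.65 ± 0.0923 (adjusted p = 0.00151) and 0.78 ± 0.0923 (0.000443). Neither step of Acss2 was called with only the arrays of the 2 times compared (0.0634 and 0.0982). Pank1, the coenzyme A synthesis gene, rose in both intervals (0.63, adjusted p = 0.0284, and 0.76, 0.015), calls that 5 and 4 of the leave-one-out fits lost, the first also with the replicate block (0.0671).

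Replication genes had few calls in these intervals. Of the 31 fork genes 1, Prim2, was higher at 480 than at 360 min (0.46 ± 0.0827, adjusted p = 0.00943, lost without 1 of the 6 arrays at 0.0531) and 0 were lower, and 0 were called between 480 and 600 min. Of the 27 licensing genes 0 were called in either interval. The medians against 0 min were 0.76, 0.99 and 1.01 for the fork list and 0.75, 0.91 and 0.75 for licensing at 360, 480 and 600 min. Tk1 rose by 0.77 ± 0.136 from 360 to 480 min (adjusted p = 0.0087, lost without 1 array at 0.0671). H1f5, a linker histone gene, read 8.37, 8.10 and 7.86 at 0 min, 7.42, 7.44 and 7.61 at 360 min, 8.29, 8.36 and 8.37 at 480 min, then 9.33, 9.17 and 9.09 at 600 min. All 360 min arrays lay below the 0 min arrays, and the 480 and 600 min arrays rose from there. The steps were 0.85 ± 0.115 (adjusted p = 0.00112) and 0.85 ± 0.115 (0.0014), so that 480 min against 0 min alone gave 0.23 ± 0.115 and no call (0.174).

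Among falling genes Slc7a5 stepped from 10.09, 10.13 and 10.09 at 360 min to 9.51, 9.62 and 9.51 at 480 min (-0.56 ± 0.0976, adjusted p = 0.00808). Zfr (-0.52, adjusted p = 0.00645) and Ei24 (-0.42, 0.00132) were lower than at 360 min as well. Hmox1 had its highest arrays at 360 min, with 8.63, 8.98 and 8.88 at 0 min, 9.21, 9.20 and 9.00 at 360 min, 8.52, 8.41 and 8.34 at 480 min, then 8.23, 7.97 and 7.87 at 600 min. The step from 360 to 480 min (-0.71 ± 0.156, adjusted p = 0.0394) was not called without any 1 of its 6 arrays (up to 0.154) or with the replicate block (0.0853). Car6, a secreted carbonic anhydrase gene, fell in both intervals (-0.41, adjusted p = 0.00151, and -0.35, 0.0113, the second lost in 3 of 6 leave-one-out fits). Slc12a9 was highest at 480 min, with 6.44, 6.20 and 6.43 at 360 min, 6.62, 6.68 and 6.71 at 480 min, then 6.42, 6.29 and 6.29 at 600 min (0.32, adjusted p = 0.0279, and -0.34, 0.04). Each of these 2 calls was lost in 5 of 6 leave-one-out fits and with the replicate block (0.0681 and 0.101). Smg5 and Pkia were lower at 600 than at 480 min by 0.28 and 0.30 (adjusted p = 0.00342 and 0.0032). Both calls ended with only the arrays of the 2 times compared, that of Pkia also with an intensity trend in the variance prior (up to 0.166 and 0.131).

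**Figure D5:**
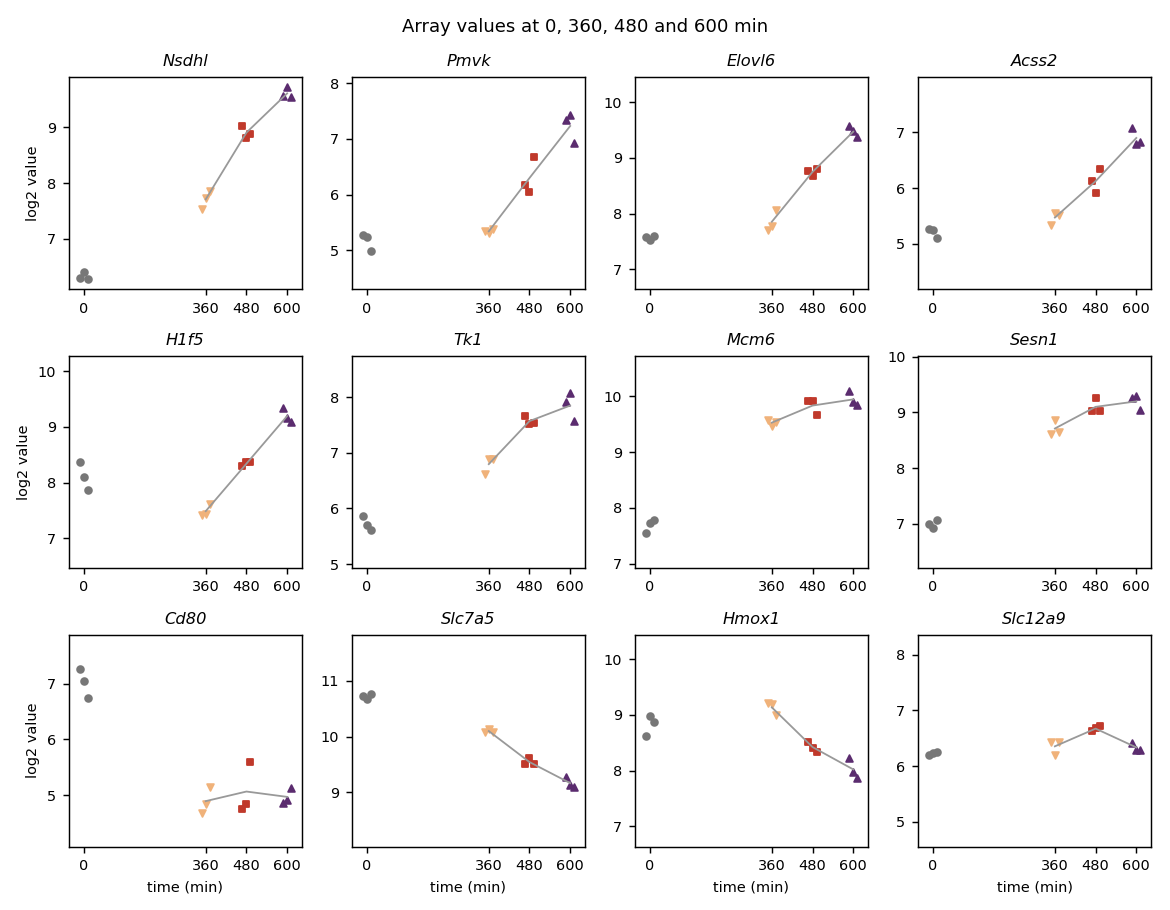
Deposited log2 values (vertical axes) of 12 genes against time in min, 1 point per array and 3 arrays each at 0, 360, 480 and 600 min, with a grey line through the means of the last 3 times and the same axis height in every panel. Nsdhl, Pmvk, Elovl6, Acss2 and H1f5 rise from 360 to 480 and again to 600 min, Slc12a9 is highest at 480 min (6.62 to 6.71), and Cd80 overlaps across the last 3 times.

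The labelled cell type was checked against markers chosen for fibroblasts and for other cells. On the 0 and 480 min arrays Vim (means 12.69 and 12.76), Fn1 (12.44 and 12.50), S100a4 (11.61 and 11.70), Col1a2 (11.53 and 11.61) and Col1a1 (10.19 and 10.17) stood far above the median of all genes, 4.35, while Lum (3.99 and 4.00) and Fap (3.78 and 3.74) stood below it. Of 12 fibroblast markers 2 rose, Pdgfra as above and Pdgfrb (0.37, adjusted p = 0.0456, lost in 4 of 6 leave-one-out fits and with the replicate block at 0.068). Of 36 markers of macrophages, epithelium, endothelium, adipocytes, skeletal muscle and neurons, 1 rose, Ckm (0.15, adjusted p = 0.0102), and 1 fell, Cdh1 (-0.33, 0.000903), both at low values. Apart from Lyz2, a lysozyme gene of macrophages (7.44 and 7.39), the means of these 36 genes lay between 3.59 and 4.75 at both times.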

How the data were processed

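The values used are the log2 intensities of the deposited series matrix. The authors processed the arrays with Partek and RMA, per the submitters' processing notes, whose versions are not given in the sources used here. A log2 scale was read from the range of the values (2.944 to 13.63). At each probe set the means of the 3 replicate numbers over the 8 times were equal (median gap 5e-06), so an effect of the replicate number had been removed from the deposited values. This can make replicates look closer than they were.

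The platform annotation gave 1 gene symbol to 21789 of the 35399 probe sets, several to 1621 and none to 11989. Each gene was read from 1 single-symbol probe set, for 999 genes the brightest of several on average, which left 19938 genes. A limma fit (version 3.58.1, R 4.3.3) with 1 mean per time over all 24 arrays gave each difference, with Benjamini-Hochberg adjustment over all genes within each comparison. The fit was run on simulated data with independent noise for each array, in which no replicate effect had been removed. That run therefore cannot check what the removal does to the p-values. Samples were grouped by the time in their titles. Nothing says whether the biological replicates were independent cultures grown on separate days, so p-values measure the spread between these samples, and their number limits the precision.

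Named genes were the 15 largest rises and falls with non-overlapping arrays, up to 8 members of each list by p with up to 3 called against the list's median, all measured polyamine and sterol members, and the 5 largest called rises and falls of each neighbouring interval. Genes without a proper name were passed over among the largest. The comparison, the gene lists and the markers were chosen with earlier results of these data known. Alternatives were a replicate block, other sets of arrays, repeated normalization, another probe set rule, a mean log2 of at least 5, a variance prior with an intensity trend and each array left out in turn. Promoter sequences came from RefSeq GRCm38.p6.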

Additional observations from a re-analysis of the deposited data

Results flagged for a closer look

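The change from 0 min was not the same at 360, 480 and 600 min for the following named genes, by limma's test of the difference between neighbouring times. The intervals share the 480 min arrays. Between 360 and 480 min 38 named genes were called. Of these, 19 kept the call whichever 1 array was left out, and 11 were not called with the replicate block.

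In cholesterol synthesis the differences of 480 min minus 360 min were 0.74 for Mvk, 0.96 for Pmvk, 1.21 for Mvd, 0.70 for Fdps, 0.62 for Fdft1, 0.64 for Sqle and 1.09 for Lss. Further along the pathway they were 0.68 for Cyp51, 1.20 for Nsdhl, 0.57 for Hsd17b7, 0.56 for Sc5d, 0.69 for Dhcr7, 0.50 for Tm7sf2 and 0.25 for Lbr. Of these 14 genes 8 kept the call without any 1 array. In SREBP control Srebf2 differed by 0.35 and Lpin1 by 0.57. In fatty acid and coenzyme A synthesis the differences were 0.53 for Acly, 0.65 for Acss2, 0.45 for Slc25a1, 0.56 for Fasn, 0.89 for Elovl6, 0.34 for Acsl4 and 0.63 for Pank1. Replication and histone genes gave 0.46 for Prim2, 0.77 for Tk1, 0.85 for H1f5 and 0.30 for H4f16. Ccl2 gave 0.60 and Slc12a9 0.32. The negative differences were -0.26 for Asns, -0.56 for Slc7a5, -0.42 for Ei24, -0.71 for Hmox1, -0.52 for Zfr, -0.41 for Car6, -0.30 for Clba1, -0.51 for Ptchd4 and -0.49 for Zadh2.

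Between 480 and 600 min 19 named genes were called. Of these, 10 kept the call whichever 1 array was left out, and 6 were not called with the replicate block. In sterol synthesis the differences of 600 min minus 480 min were 0.63 for Mvk, 0.93 for Pmvk, 0.70 for Nsdhl, 0.53 for Hsd17b7, 0.38 for Sc5d and 0.78 for Tm7sf2. Lipid genes gave 0.45 for Acly, 0.78 for Acss2, 0.40 for Slc25a1, 0.72 for Elovl6, 0.33 for Acsl4, 0.47 for Lpin1 and 0.76 for Pank1. H1f5 rose by 0.85. Car6 differed by -0.35, Clba1 by -0.29, Pkia by -0.30, Slc12a9 by -0.34 and Smg5 by -0.28.

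Probe sets with several gene symbols or none entered no comparison above. Fitted on their own, 658 of 13610 were called at 480 min against 0 min, 288 higher and 370 lower, and 14 and 34 of them changed by at least 1 on the log2 scale.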

How the results depend on the processing

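The count of genes called at 480 min against 0 min was 4834 and stayed within 1.5 times of that under all 15 alternatives. It was 4344 with the replicate block (1691 higher and 2653 lower), 4826 with the 6 arrays of the comparison alone, 5115 without the 2 arrays that stood apart (4683 with the block as well) and 4033 to 4314 with 1 array left out. Whether the replicate numbers pair the samples cannot be judged from the deposited values, because the effect of the number had been removed from them. Deviations of same-numbered arrays at 0 and 480 min correlated at -0.18, -0.20 and -0.29. Of 330 named genes called, 291 kept the call in every alternative in which they were tested, 18 others gained one in at least 1, and 0 changed direction. Among 540 counts of list members called, 13 moved by over 1.5 times, in the replication-dependent histones, cytosolic ribosomal proteins, collagens and matrix proteases.

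The counts between neighbouring times moved more, and the cause was not tested. Against 360 min the 122 calls became 65 with the replicate block, 237 without the 2 arrays that stood apart and 42 to 90 with 1 array left out. Between 480 and 600 min the 36 calls became 21 with the replicate block, 18 with only the arrays compared, 91 without the 2 arrays and 18 to 47 with 1 array left out. Of the named genes called in these intervals 11 of 38 and 6 of 19 were not called with the block.

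With 3 arrays per time, changes smaller than about the median 95% half-width of 0.118 were mostly not detectable. That half-width is not adjusted for the number of genes, so a call at the median SE needed a larger change. Between neighbouring times, with fewer genes called, it needed a larger one still. The arrays give no depth. Changes near the floor of the array are understated on the log2 scale.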
